A study of Drosophila melanogaster with 4 samples.

Results

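Cluster 2 is a group of nuclei from the abdominal cuticle of adult male *Drosophila melanogaster*, 1 of 16 clusters (numbered 0 to 15) that the authors deposited for their control libraries and 1 of the clusters they assigned to adipose tissue. Its members are the nuclei that carry the number 2 in the deposited annotation, and they number 2219 of the 15280 control nuclei and of the 25141 nuclei in the whole series. The cluster had been proposed as a *Sod3*-high form of adipose nuclei, with *CG2811*, *Sod3*, *CG12012*, *teq* and *SamDC* as its markers. Clusters 0 and 4, which the authors also assigned to adipose tissue, with 5325 and 1025 control nuclei, are the closest comparisons.

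The fly fat body is the tissue that stores triglyceride and glycogen, exports lipid in lipophorin particles, senses nutrients through insulin and TOR signaling, and secretes immune and other blood proteins. In the adult abdomen it lies as a sheet under the cuticle, next to the body wall muscle and the oenocytes, which make hydrocarbons and very long chain fatty acids. Single-nuclei RNA-sequencing counts RNA still in the nucleus, much of it unspliced, together with any RNA from cytoplasm or from lysed cells that stays with a nucleus.

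The series holds 4 droplet libraries, 2 that carried UAS-Tsc1 and UAS-Tsc2 (oenots>tsc1,tsc2), inhibitors of TOR signaling, and 2 that carried UAS-2xEGFP (oenots>EGFP, the controls), each transgene in 1 copy. Both were in the w1118 background and had 1 copy each of PromE-GAl4 and of tub-Gal80ts. All flies were males reared at 18 °C and kept at 29 °C for 4 days, the temperature at which Gal80ts no longer blocks Gal4, and each library was made from 40 pooled abdomens. PromE-Gal4 drives the transgenes in oenocytes, so the adipose nuclei of both genotypes are not the cells meant to express them. Only control nuclei have deposited clusters. The study describes the 2 control libraries as biological replicates, and since the sources used here do not say so of oenots>tsc1,tsc2, the spread of that pair may be technical.

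The libraries held 7594 and 2267 nuclei in oenots>tsc1,tsc2 and 7213 and 8067 in oenots>EGFP, with 3972281, 1449112, 3256566 and 3924035 UMIs, and a nucleus held between 254 and 3006 UMIs. The control libraries shared 74 barcodes, of which 25 belonged to cluster 2 in either library and 1 in both. Summed over the nuclei of cluster 2, the counts of the 2 control libraries differed by more than sampling noise (chi-square over degrees of freedom 5.16 across 6477 genes). The transgene driver *gal4* was counted at 35.1 and 24.5 CPM (UMIs of a gene scaled to the same total for every library and cluster) in cluster 2, from 14 and 8 UMIs, against 167 and 349 CPM in the oenocyte cluster 1. *Tsc1* and the gene for Tsc2 were not analysed here.

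Cluster 2 was a large and shallow cluster. It held 1232 nuclei in control replicate 1, 17.1% of that library (95% Wilson interval 16.2 to 18.0), and 987 in replicate 2, 12.2% (11.5 to 12.97). These intervals cover counting error only, and the shares of the 2 libraries did not overlap within them. Cluster 0 made up 29.2% and 39.9% of the same libraries, and cluster 4 made up 5.57% and 7.72%. The median nucleus of cluster 2 had 310 and 313 UMIs, against 382 and 409 in cluster 0 and 700 and 657 in cluster 4. Cluster 8, which the authors also assigned to adipose tissue, had medians of 321.5 and 382 UMIs, from 280 and 11 nuclei. In replicate 1 a shallow depth was therefore not particular to cluster 2. In cluster 2, 91.6% and 90.9% of nuclei held at most 400 UMIs, against 57.4% and 46.1% in cluster 0 and 8.96% and 6.58% in cluster 4. The depths of clusters 2 and 4 therefore overlap little. Ratios over cluster 4 in nuclei of at most 400 UMIs rest on few nuclei of cluster 4 and are imprecise.

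Shallow nuclei of cluster 2 were spread over many genes. The median number of genes was 174 and 186 in cluster 2, against 170 and 198 in cluster 0 and 245 and 260 in cluster 4. With each nucleus thinned to 200 UMIs it was 129 and 136 in cluster 2, against 116 and 126 in cluster 0 and 121 and 128 in cluster 4. Of the genes counted in a nucleus, a median of 63.5% and 66.3% had a count of 1 in cluster 2, against 52.6% and 56.4% in cluster 0 and 50% and 51.9% in cluster 4. The excess over cluster 0 was also there at like depth. Among nuclei of 301 to 350 UMIs the medians were 63.5% and 65.8% in cluster 2, against 56.4% and 61.0% in cluster 0 and 60.3% and 61.9% in cluster 4. The deposited counts had been corrected for ambient RNA by the authors, and for many abundant genes no count of 1 is left in any control nucleus, so genes differ in the smallest count they can show. The lowest count above 0 was 1 for all 5 proposed markers, 2 for *Pli*, *Egfr*, *LpR2*, *bru1* and *Mhc*, 3 for *FASN3* and 4 for *apolpp*.

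Cluster 2 carried the genes that define adipose tissue. *apolpp*, which encodes the apolipoprotein of lipophorin, was counted at 23993 and 21161 CPM in cluster 2, against 35814 and 32781 in cluster 0 and 20873 and 21619 in cluster 4. It was found in 1525 of 2219 nuclei of cluster 2 (68.7%), against 87.7% of cluster 0 and 78.7% of cluster 4. The oenocyte cluster 1 and the muscle cluster 5, which should lack it, had shares of 8.84% and 20.2%, at median depths of 342 and 414 UMIs in cluster 1 and 444 and 514 in cluster 5. The small clusters 10, 13 and 14, not assigned to adipose tissue, had 18193, 23640 and 21071 CPM of *apolpp* in replicate 2, near the level of cluster 2. In replicate 1 they had 9192, 7483 and 8483 CPM. *apolpp* overlaps *Zyx* on the other strand, and reads of overlapping genes may have been counted for either, since strand use in the counting was not stated. The lipophorin receptor *LpR2* averaged 3268 ± 312 CPM in cluster 2 (SD, n = 2), against 4063 ± 1074 in cluster 0 and 1833 ± 114 in cluster 4. *AkhR*, the receptor of the adipokinetic hormone that mobilizes stored fuel, averaged 581.0 ± 62.1 CPM in cluster 2, against 1131 ± 131 in cluster 0 and 463 ± 182 in cluster 4.

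All 19 adipose markers listed were in the files, and 16 passed the depth filter of 50 UMIs per library over the clusters compared. A gene was called where it differed at least 2-fold the same way in both control libraries. No adipose marker was called against cluster 0, against cluster 4 or against all other clusters. The median log2 ratio of the 16 was -0.44 against cluster 0, 0.81 against cluster 4 and 0.55 against all other clusters. Summed, the list took 72175 and 67802 CPM in cluster 2, against 104383 and 93756 in cluster 0, 47692 and 53335 in cluster 4 and 46789 and 51403 in all other clusters, so both libraries put cluster 2 below cluster 0 and above cluster 4. *Lsp2* and *Fbp1*, genes of larval fat body proteins, were at 0 UMIs in both libraries of cluster 2, a count that allows up to 3. Over 4925 genes the summed profile of cluster 2 had a Pearson r of 0.86 with cluster 0, 0.80 with cluster 4 and 0.79 with cluster 8, and the lowest value was 0.43 with cluster 6. These correlations are across genes, which are not independent replicates, and the profiles share libraries. The adipose part of the label therefore fits the markers measured, although small clusters outside adipose tissue came near its *apolpp* level in replicate 2.

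The 5 proposed markers were highest in cluster 2 of all 16 clusters by mean CPM, as the plot of marker levels across clusters shows. They were part of what set the cluster apart when it was drawn, so these levels are a description and carry no test. *Sod3* (FBgn0033631, Release 6, 2R:11380347-11384114, minus strand), which encodes the extracellular superoxide dismutase, was counted at 228 and 116 CPM in cluster 2, from 91 and 38 UMIs. It was at 32.2 and 32.5 CPM in cluster 0 and at 13.5 and 28.4 CPM in cluster 4. The next clusters were cluster 3, with a mean of 58.2 CPM, and cluster 9, with 58.1 CPM, whose replicate 2 was at 116 CPM from 4 UMIs, level with replicate 2 of cluster 2. The log2 ratio of *Sod3* was 2.81 and 1.85 over cluster 0 and 3.92 and 2.00 over cluster 4, and the ratios of the replicates differed by more than 1.5-fold.

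*SamDC* (FBgn0019932, 2L:10339457-10341503, plus strand) encodes S-adenosylmethionine decarboxylase, an enzyme of polyamine synthesis, and was counted at 233 and 126 CPM in cluster 2, against 41.4 and 18.0 in cluster 0 and 70.9 and 48.1 in cluster 4. Its mean log2 ratio over cluster 4 turned to -0.30 in nuclei of at most 400 UMIs and to -0.49 with counts of 1 left out. The first value is imprecise, since only 8.96% of 402 and 6.58% of 623 nuclei of cluster 4 were that shallow. *teq* (FBgn0023479, 3L:9074643-9092131, plus strand) encodes the secreted serine protease Tequila and was counted at 191 and 172 CPM in cluster 2, against 25.3 and 24.2 in cluster 0 and 97.9 and 87.4 in cluster 4. Its log2 ratio over cluster 4 was 0.95 and 0.97, just under the 2-fold limit. *CG12012* (FBgn0035444, 3L:3376757-3377992, plus strand) was counted at 173 and 221 CPM in cluster 2, against 27.6 and 33.2 in cluster 0 and 27.0 and 56.8 in cluster 4. For each of these genes the 2 control libraries of cluster 2 lay above those of clusters 0 and 4 without overlap.

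*CG2811* (FBgn0035082, 2R:24939706-24940483, minus strand), which overlaps *CG3760* on the other strand, was counted at 166 and 91.9 CPM in cluster 2, against 21.9 and 9.67 in cluster 0 and 6.75 and 15.3 in cluster 4. It fell under the depth filter against both adipose clusters, with 66 and 30 UMIs in cluster 2. Over all other clusters, where it passed, its mean log2 ratio of 2.86 was the highest of the genes called higher. The mean log2 ratios over all other clusters were 2.64 for *CG12012*, 2.55 for *teq*, 2.45 for *Sod3* and 2.41 for *SamDC*.

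**Figure D1:**
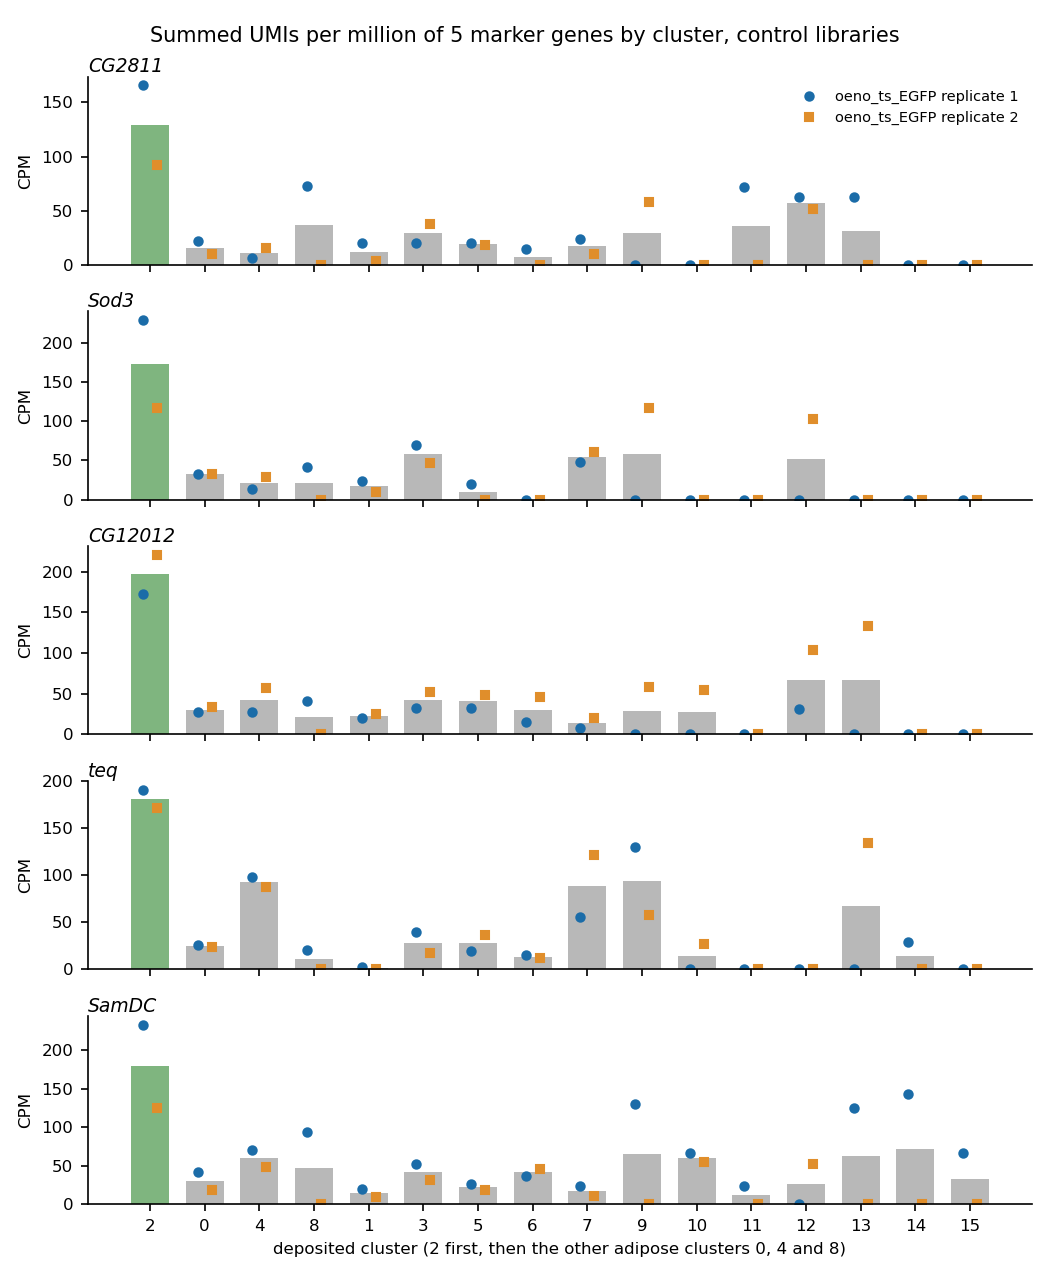
CPM of the 5 proposed markers in each deposited cluster (horizontal axis, cluster number), with 1 point per control library and bars at the mean of both. Cluster 2 has the highest mean of all 16 clusters for each marker, for *Sod3* with 228 and 116 CPM.

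Most nuclei of cluster 2 carried none of these markers. *Sod3* was found in 110 of 2219 nuclei, or 4.96% (4.13 to 5.94), *CG2811* in 94 (4.24%), *teq* in 120 (5.41%), *SamDC* in 124 (5.59%) and *CG12012* in 128 (5.77%). At least 1 of the 5 was found in 326 nuclei of replicate 1 (26.5%) and 188 of replicate 2 (19.0%), against 3.61% and 2.73% of cluster 0 and 7.46% and 8.35% of cluster 4. At least 2 of the 5 were found in 40 and 20 nuclei of cluster 2, against 1 and 0 nuclei of cluster 0. *Sod3* was thus found in about 1 nucleus in 20, and the cluster as a whole is referred to by its number here. The shares of *Sod3* in oenocyte cluster 1 and muscle cluster 5 were 0.473% and 0.351%, below its share in cluster 2. Thinned to 200 UMIs per nucleus, the mean share of *Sod3* was 3.62% in cluster 2, against 0.526% in cluster 0 and 0.490% in cluster 4.

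Most nuclei of cluster 2 with a given marker held a single UMI of it. Of the 110 *Sod3* nuclei of cluster 2, 93 held 1 UMI and 17 held 2 or more, while of the 42 *Sod3* nuclei of cluster 0, 12 held 1 and 30 held 2 or more. All 8 *Sod3* nuclei of cluster 4 held 2 or more. *CG2811* gave 93 nuclei with 1 UMI and 1 nucleus with more in cluster 2, against 7 and 13 in cluster 0. Nuclei with 2 or more UMIs of *Sod3* made up 0.766% of cluster 2, against 0.563% of cluster 0 and 0.780% of cluster 4. For *teq* there were 11 such nuclei in cluster 2, against 24 in the larger cluster 0 and 32 in cluster 4. The excess of *Sod3* nuclei in cluster 2 therefore lay mostly in nuclei with exactly 1 UMI. With counts of 1 left out of all genes, an alternative chosen after the data were seen, the log2 ratio over cluster 0 was 1.30 for *Sod3*, 0.90 for *teq*, 0.69 for *CG12012* and 0.43 for *SamDC*, and none of these genes kept its call. The ratio of *CG2811* over all other clusters turned to -1.25. Counts of 1 were commoner in cluster 2 over genes in general, as given above, and their part in the marker levels was not tested.

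**Figure D2:**
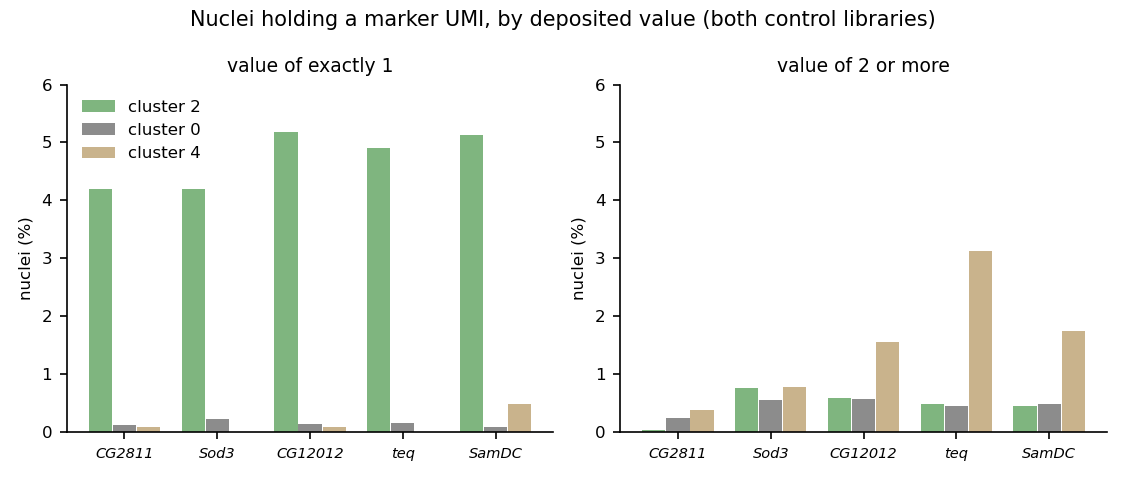
Share of nuclei with exactly 1 UMI and with 2 or more UMIs of each proposed marker in clusters 2, 0 and 4 (control libraries pooled, percent of nuclei). *Sod3* was at 1 UMI in 93 nuclei of cluster 2 and in 12 of cluster 0, while the share with 2 or more was 0.766% in cluster 2 and 0.563% in cluster 0.

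The genes whose log2 CPM followed *Sod3* most closely over the 16 clusters, among 4924 genes, were *CG11200* (Pearson r 0.85), *Ass* (0.81), which encodes argininosuccinate synthetase, *CG4607* (0.79), *Tsp42Ef* (0.79), a tetraspanin, and *l(2)gl* (0.77), a cell polarity gene. These values rest on 16 clusters of the same 2 libraries, which share depth, and are a description. *Sod3* was at 0 UMIs in both libraries of clusters 6, 10, 11, 13, 14 and 15. It had at most 4 UMIs per library in clusters 5, 8, 9 and 12, so many points lie at or near the floor.

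Against cluster 0, cluster 2 had more of many short transcripts and less of almost none. Of 3188 genes that passed the filter, 429 (13.5%) were at least 2-fold higher in cluster 2 in both libraries and 8 (0.251%) were at least 2-fold lower. The authors' clusters were drawn from these same genes, so the counts describe the cluster and are not tests. The median gene stood at log2 0.31 and 0.29, and scaling by edgeR's TMM factors moved it to -0.09 and -0.06 and gave 257 genes higher and 70 lower. Higher genes were 98.2% of the calls on CPM, 78.6% with TMM factors and 85.1% with DESeq2's size factors. In nuclei of at most 400 UMIs, 157 genes were higher and 2 lower, and thinned to 200 UMIs 172 were higher and 1 lower. The background against cluster 4 was 23.3% of 1888 genes higher (439) and 12.1% lower (228), and against all other clusters 5.8% of 6084 genes higher (353) and 5.7% lower (347).

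Ribosomal protein and mitochondrial transcripts placed cluster 2 between the other adipose clusters. Of 79 cytosolic ribosomal protein genes that passed, 57 were called higher than in cluster 0, beside 13.5% of all genes, with a median log2 ratio of 1.62. Against cluster 4, 50 of 79 were called lower, beside 12.1% of all genes, with a median of -1.43. Together they took 35059 and 37240 CPM in cluster 2, against 9969 and 13855 in cluster 0 and 96431 and 92928 in cluster 4. *RpL27A* averaged 852.6 ± 59.3 CPM in cluster 2, against 279.1 ± 40.0 in cluster 0 and 3546 ± 235 in cluster 4. *RpL38* averaged 751 ± 300 CPM in cluster 2, against 153 ± 10.0 in cluster 0 and 2652 ± 1278 in cluster 4. The clusters did not overlap for either gene. Under TMM or DESeq2 scaling, at most 400 UMIs, thinning, means of nuclei or with counts of 1 left out, between 28 and 72 of the ribosomal protein genes were higher than in cluster 0 and between 25 and 62 were lower than in cluster 4.

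The mitochondrial genome encodes core subunits of the respiratory chain, and its RNA is not made in the nucleus. All 8 mitochondrially encoded genes that passed were higher than in cluster 0, with a median log2 ratio of 3.19, and 5 of 8 were lower than in cluster 4, with a median of -2.49. *mt:CoI*, which encodes subunit I of cytochrome c oxidase, was counted at 821 and 196 CPM in cluster 2, against 18.4 and 31.8 in cluster 0 and 7020 and 2039 in cluster 4. *mt:CoII* was counted at 334 and 126 CPM in cluster 2, against 11.5 and 9.67 in cluster 0 and 3748 and 988 in cluster 4. Replicate 1 was more than 2-fold higher than replicate 2 in clusters 2 and 4 for both genes, and the order of the clusters was the same in both replicates. Among nuclear genes of oxidative phosphorylation, 15 of 40 were higher than in cluster 0 (median 0.99), beside 13.5% of all genes. Against cluster 4, 19 of 47 were lower (median -1.15), beside 12.1% of all genes. *COX7A* averaged 340.6 ± 61.4 CPM in cluster 2, against 53.8 ± 10.9 in cluster 0 and 689 ± 105 in cluster 4, against which it did not pass the 2-fold rule.

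The order followed the length of the gene. Genes called higher than in cluster 0 had a median span of 1802.5 bp, against 3829.5 bp for all genes that passed. Genes called higher than in cluster 4 had a median span of 8551 bp and those called lower 1477 bp, against 4930 bp for all that passed. Genes of up to 2000 bp took 26.7% and 26.01% of the UMIs of cluster 2, against 18.9% and 20.1% in cluster 0 and 49.5% and 42.7% in cluster 4. Genes of more than 20000 bp took 27.8% and 27.7% in cluster 2, against 35.2% and 33.0% in cluster 0 and 12.7% and 16.6% in cluster 4. Long genes have more intron for a nuclear read to fall in. Depth, the share of counts of 1 and the share of short genes all differed between the clusters at once, and their part in the single gene differences was not tested.

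**Figure D3:**
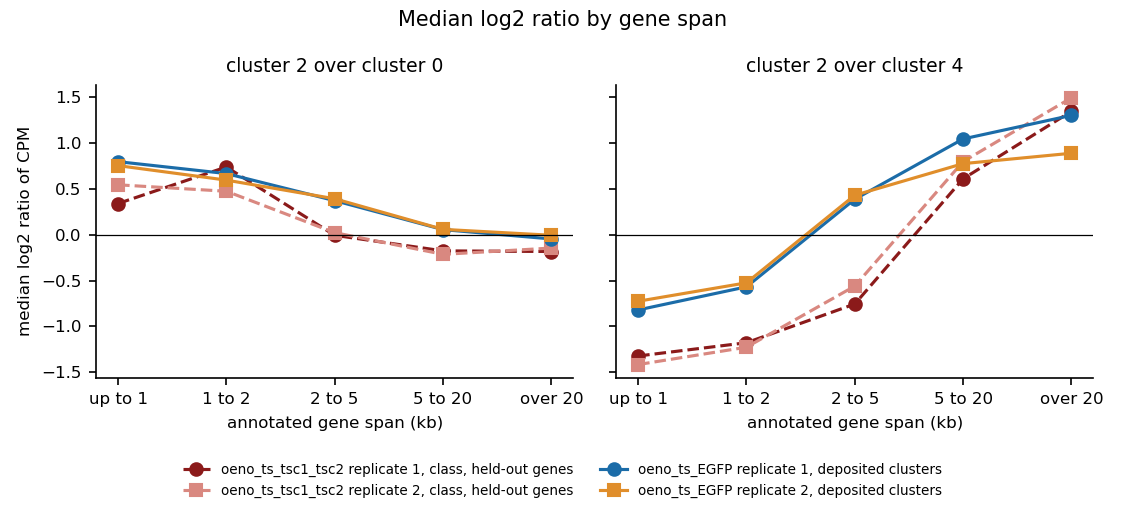
Median log2 ratio of CPM by class of gene span (kb, horizontal axis) for cluster 2 over cluster 0 and over cluster 4 in the control libraries, and for the matching classes of oenots>tsc1,tsc2 nuclei. In the controls the medians of genes of up to 1000 bp were 0.80 and 0.75 over cluster 0 and -0.82 and -0.72 over cluster 4, and those of genes over 20000 bp were -0.05 and -0.00 over cluster 0 and 1.30 and 0.89 over cluster 4.

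Of the 10 genes with the largest ratios over cluster 0, *mt:CoII* and *mt:CoI* belong to the lists above and none is a ribosomal protein gene. *Srp9*, a subunit of the signal recognition particle, was counted at 156 and 116 CPM in cluster 2, against 3.45 and 15.2 in cluster 0. These levels came from 62 and 38 UMIs in cluster 2 and from 3 and 22 in cluster 0. The others were *CG15209*, *CG32441*, *kud*, *CG7430*, *P32*, *CG12825* and *CG12848*, whose log2 ratios lay between 2.89 and 4.92. In replicate 1 each of these held between 3 and 10 UMIs in cluster 0, against 47 to 54 in cluster 2. They thus passed the filter mostly through cluster 2, and their ratios are imprecise. *kud* overlaps *TSG101*. The 8 genes called lower were led by *disco*, a zinc finger transcription factor, at 15.1 and 6.13 CPM in cluster 2 against 87.4 and 87.0 in cluster 0. The others were *DIP1*, *retm*, *Ect3*, *Ugt49B1*, *CG4822*, *to* (takeout) and *CG40228*, with log2 ratios between -2.34 and -1.05. In nuclei of at most 400 UMIs *to* turned to 0.71. Over all other clusters the 5 highest ratios were those of *CG2811*, *CG12012*, *CG5577*, *teq* and *Lis-1*, a regulator of the dynein motor. *Lis-1* was counted at 143 and 208 CPM in cluster 2, against 16.1 and 22.1 in cluster 0 and 27.0 and 19.7 in cluster 4.

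Superoxide dismutases and catalase, enzymes against reactive oxygen, were counted more in cluster 2 than in cluster 0. Of 19 antioxidant genes that passed, 4 were higher, beside 13.5% of all genes and with the marker *Sod3* among the 4, none was lower, and the median was 0.31, which turned to -0.06 with TMM factors and -0.03 with DESeq2's. *Sod1*, the cytosolic superoxide dismutase, averaged 772 ± 134 CPM in cluster 2, against 159.9 ± 79.7 in cluster 0 and 1594 ± 14.4 in cluster 4. *Cat* (catalase) averaged 1078 ± 179 CPM in cluster 2, against 250.7 ± 51.9 in cluster 0 and 1699 ± 539 in cluster 4. *Sod2*, the mitochondrial form, had log2 ratios of 4.11 and 1.27 over cluster 0, and *Sod3* is given above. Against cluster 4, of 16 tested, *Sod3* and *Keap1* were higher and *Jafrac1* and *Prx2540-2*, both peroxiredoxins, were lower. In nuclei of at most 400 UMIs the ratios over cluster 4 of *Keap1* and *Jafrac1* turned to -0.16 and 1.06. Few nuclei of cluster 4 were that shallow, so these 2 values are imprecise.

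Counts of metabolic genes higher than in cluster 0 stand beside 13.5% of all genes, and the lipid count was below that share. Of 21 genes of lipid storage and mobilization, *Lpin*, the phosphatidate phosphatase of triglyceride synthesis, and *SREBP*, the transcription factor of lipid synthesis, were higher, and the list's median was -0.36, while with TMM factors 1 was higher and 3 were lower. *Lpin* averaged 127.5 ± 11.4 CPM in cluster 2, against 29.1 ± 6.01 in cluster 0 and 67.4 ± 19.0 in cluster 4. Of 14 genes of glycogen and trehalose, *GlyS* (glycogen synthase), *Gapdh2* and *Pepck2* were higher than in cluster 0, with a median of -0.03 over the list. *Pepck2* averaged 183.8 ± 4.35 CPM in cluster 2, against 81.4 ± 8.58 in cluster 0 and 53.2 ± 1.12 in cluster 4. In nuclei of at most 400 UMIs, few of them in cluster 4, its log2 ratio over cluster 4 was -0.15. Of 16 cytochrome P450 and glutathione S-transferase genes, 5 were higher than in cluster 0, among them *Cyp9f2*, at 166.5 ± 5.88 CPM in cluster 2 against 14.4 ± 0.806 in cluster 0 and 70.1 ± 24.99 in cluster 4. In the polyamine and methionine list 2 of 12 were higher than in cluster 0, *SamDC*, which is itself a proposed marker, and *pug*, a folate enzyme.

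Against cluster 4, list counts stand beside 23.3% of all genes called higher and 12.1% called lower. The 5 highest ratios were those of *CG11360*, *CG12567*, *mim*, *Pex2*, a peroxisome biogenesis gene, and *Xe7*. *Pex2* was counted at 120.5 and 144 CPM in cluster 2, against 42.6 and 26.9 in cluster 0 and 6.75 and 15.3 in cluster 4. It had 48 and 47 UMIs in cluster 2, against 2 and 7 in cluster 4. In replicate 1 the 5 genes each held between 2 and 7 UMIs in cluster 4, so they passed the filter mostly through cluster 2. Their ratios are therefore imprecise. Of 14 insulin and TOR pathway genes, *S6k* and *Pdk1*, both kinases of the pathway, were higher, and the median was 0.85, although neither was called with TMM or DESeq2 scaling and *S6k* turned to -0.04 with counts of 1 left out. Of 10 ecdysone response genes, *EcR*, *Eip74EF*, *Kr-h1* and *gce* were higher (median 0.94; 0 of 10 with TMM or DESeq2 scaling), and of 8 clock genes *tim* and *Pdfr* were higher (median 1.10). The insulin and TOR count was below the share over all genes and the clock count close to it. These medians stood beside 0.75 and 0.59 over all genes against cluster 4. *EcR*, the ecdysone receptor, averaged 231.7 ± 18.9 CPM in cluster 2, against 211.1 ± 41.5 in cluster 0 and 85.6 ± 30.4 in cluster 4, and with counts of 1 left out its log2 ratio over cluster 4 was -1.96. None of the 19, 13 and 9 genes of these lists that passed against cluster 0 was called except *cry*, the light receptor of the clock, at 179.9 ± 50.8 CPM in cluster 2 against 30.6 ± 2.26 in cluster 0 and 62.4 ± 26.1 in cluster 4.

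*Obp99b*, an odorant-binding protein, was counted at 87.8 and 18.4 CPM in cluster 2, against 2394 and 922 in cluster 4. With *Obp99c*, *Npc2g* and *Npc2h*, whose products are small lipid-binding proteins, 4 of 5 genes of that list were lower than in cluster 4, beside 12.1% of all genes. None of that list was called against cluster 0. *Fer1HCH* and *Fer2LCH*, the ferritin chains, and *Tsf1* (transferrin) were all lower, 3 of 3 tested. *Nplp2* averaged 17750 ± 3069 CPM in cluster 2, against 19457 ± 1742 in cluster 0 and 73388 ± 14124 in cluster 4. *GlyP*, *Tps1* and *Pgm1*, enzymes of glycogen breakdown and trehalose synthesis, were lower than in cluster 4, and *Tps1* averaged 1113 ± 111 CPM in cluster 2, against 1370 ± 149 in cluster 0 and 3898 ± 241 in cluster 4. Of the genes called lower than in cluster 4, 29 of 228 had 1 as their lowest count above 0 in the controls, against 436 of the 439 called higher and 1203 of the 1888 that passed. Genes called higher and genes called lower than in cluster 4 thus differed in the lowest count they showed, and its part in these calls was not tested.

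**Figure D4:**
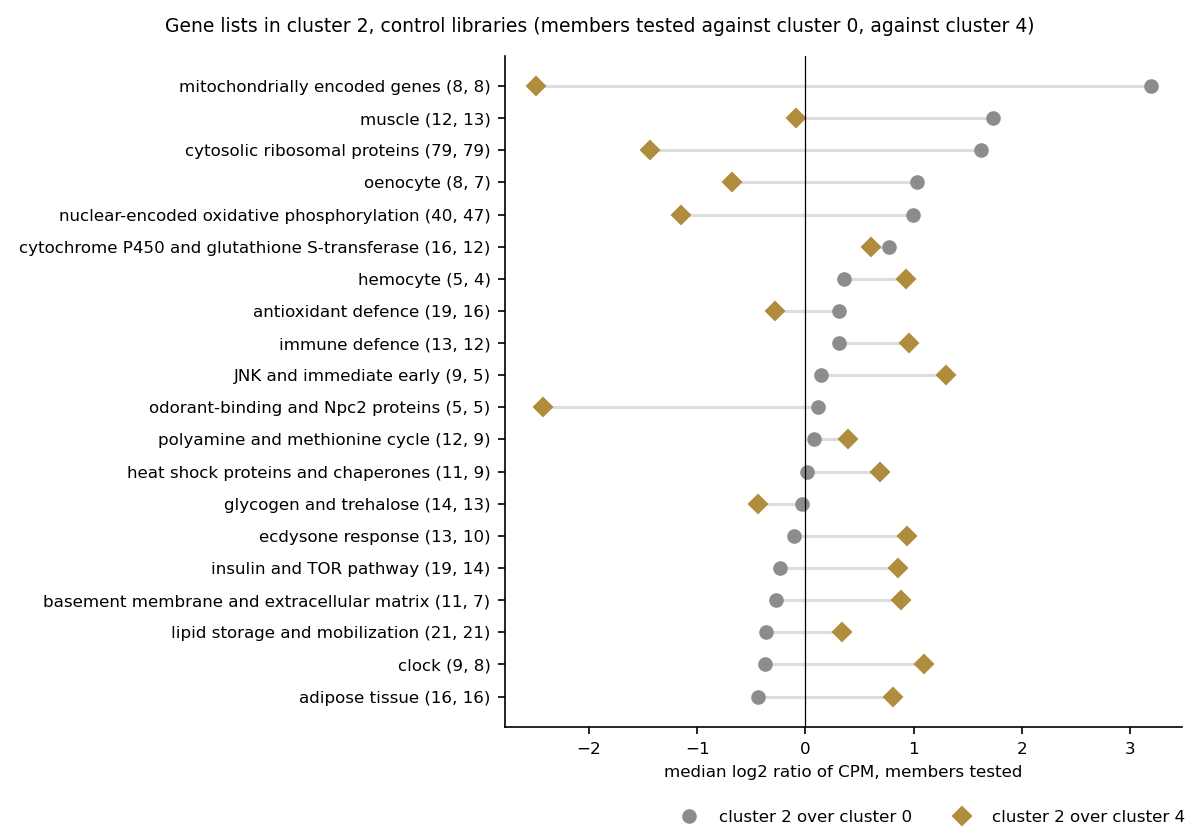
Median log2 ratio of CPM of each gene list for cluster 2 over cluster 0 and over cluster 4 in the control libraries, with the number of members that passed the filter in parentheses. Ribosomal protein genes stood at 1.62 over cluster 0 and -1.43 over cluster 4, and adipose markers at -0.44 and 0.81.

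Of 13 immune defence genes 3 were higher than in cluster 0, *teq*, *Drsl4* and *PGRP-LC*, a peptidoglycan receptor, and none was lower, beside 13.5% of all genes higher. *teq* is itself a proposed marker. Against cluster 4, of 12 of them *PGRP-LC* and *Dif*, an NF-kappaB factor, were higher and *IM33* and *nec* lower, beside 23.3% and 12.1% of all genes. In nuclei of at most 400 UMIs, few of them in cluster 4, *nec* turned to 0.83 over cluster 4. The GATA factor *srp* was higher than in both, at 371.2 ± 59.9 CPM in cluster 2, against 165 ± 31.0 in cluster 0 and 83.1 ± 2.96 in cluster 4. With counts of 1 left out the ratios over cluster 0 of *PGRP-LC* and *srp* turned to -0.27 and -0.67. Of 11 heat shock and chaperone genes *Hsp60A* and *Hsc70-5*, mitochondrial chaperones, were higher than in cluster 0 and none of 9 was called against cluster 4. *puc* and *kay*, of 5 JNK and immediate early genes, were higher than in cluster 4 and none of 9 was called against cluster 0.

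Markers of muscle and oenocytes were low in cluster 2 but higher than in cluster 0. The 19 muscle genes summed to 2723 and 3268 CPM in cluster 2, against 1469 and 1749 in cluster 0, 2856 and 2393 in cluster 4 and 14443 and 12694 in all other clusters. Of 12 that passed, 8 were called higher than in cluster 0, beside 13.5% of all genes. Of 17 that passed against all other clusters, 15 were lower, beside 5.7% of all genes. The 14 oenocyte genes summed to 1421 and 1265 CPM in cluster 2, against 734 and 600 in cluster 0, 3643 and 1812 in cluster 4 and 11789 and 13620 in all other clusters. Of 8 oenocyte genes that passed, 3 were called higher than in cluster 0, and of 11 against all other clusters 8 were lower. *FASN3*, a fatty acid synthase of oenocytes, was found in 2.16% of cluster 2, against 0.638% of cluster 0, 5.37% of cluster 4 and 83.5% of cluster 1. *Mhc*, the muscle myosin heavy chain, was found in 1.58% of cluster 2, against 0.638% of cluster 0, 2.24% of cluster 4 and 80.1% of cluster 5. The 14 genes of the male accessory gland and ejaculatory bulb summed to 2811 and 263 CPM in cluster 2, against 759 and 218 in cluster 0 and 1857 and 341 in cluster 4. These genes were therefore higher in replicate 1 of all 3 clusters. The part of RNA from other cells in the differences between the adipose clusters was not tested.

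The genes of the control clusters cannot be tested on the nuclei that were clustered, so the pattern was looked for in the oenots>tsc1,tsc2 libraries, which have no deposited clusters. Each of their nuclei was assigned to the most likely control cluster from the genes at alternate places of the table, and the remaining genes, which the assignment did not use, were compared between the assigned classes. The classes match the clusters only in part. With the profiles of the other control library and the genes at odd places, 48.4% of the cluster 2 nuclei returned to class 2 in replicate 1 and 72.0% in replicate 2, while 39.9% and 16.8% went to class 0. With the genes at even places 61.8% and 71.8% returned, and 26.9% and 18.3% went to class 0. Of nuclei assigned to class 2, 66.2% in replicate 1 and 35.5% in replicate 2 (odd places) and 66.6% and 39.2% (even places) had cluster 2 as their deposited number. Assigned from all genes, as for the comparison of genotypes, 59.1% and 77.4% returned, and 69.7% and 38.9% of class 2 had the deposited number. In oenots>tsc1,tsc2 the class 2 nuclei assigned from all genes had a median of 374 and 403 UMIs, against 473 and 457.5 in class 0 and 665 and 782 in class 4. Counts of 1 were a median of 65.3% and 63.2% in class 2, against 56.3% and 52.3% in class 0 and 56.3% and 49.0% in class 4, so the classes repeat the depth and the counts of 1 of the clusters.

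Held-out genes kept the ribosomal order. The classes were assigned with the ribosomal protein genes at the other places, which move with those compared. The counts below are therefore not independent support for the order. Of 58 ribosomal protein genes that passed the depth filter, 45 were at least 2-fold higher in class 2 than in class 0 in both oenots>tsc1,tsc2 libraries, with median log2 ratios of 1.47 and 1.72, against 7.37% of all 773 genes (57), while 0.776% of them (6) were lower. Of 78 that passed against class 4, 67 were at least 2-fold lower, with medians of -1.58 and -1.73, against 23.1% of 720 genes (166), while 22.1% of those genes (159) were higher. Ribosomal proteins thus made up most of the genes higher over class 0. Genes of other cell types were also among them. *EbpII*, of the ejaculatory bulb, was counted at 4122 and 1031 CPM in class 2, against 696 and 106 in class 0, and both genes of the male accessory gland and ejaculatory bulb that passed were higher (medians 2.34 and 3.05). *Mlc2*, a muscle myosin light chain, was counted at 239 and 769 CPM in class 2, against 33.7 and 61.0 in class 0. Their part in the result was not tested. Mitochondrially encoded genes were lower in class 2 than in class 4 for 5 of 5, with medians of -2.63 and -2.83. *mt:CoI* was counted at 462 and 206 CPM in class 2, against 3068 and 1525 in class 4. Adipose markers were called against class 0 for 0 of 13 (medians -0.43 and -0.61) and higher than class 4 for 10 of 13 (1.30 and 1.40).

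Of the 429 genes higher than in cluster 0 in the controls, 66 passed the filter in the oenots>tsc1,tsc2 libraries, 62 of those were above 0 in both, and 43 (65.2%) were at least 2-fold higher in both, against 7.03% of the 768 genes tested in both genotypes. Of the 228 genes lower than in cluster 4, 177 passed and 112 (63.3%) were at least 2-fold lower in both, against 23.3% of 691 genes. Of the 439 genes higher than in cluster 4, 56 passed and 47 (83.9%) were at least 2-fold higher, against 23.0%. Of the 8 genes lower than in cluster 0 only *retm* passed, at 0.57 and -0.15. The assignment was trained on the control clusters, and genes of a kind move together, so genes left out of it are not free of what defined the clusters. These shares are therefore not independent support, and the shares over all genes include the genes followed.

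In edgeR's quasi-likelihood test with Benjamini-Hochberg adjustment, no gene of 5386 was higher or lower in class 2 than in class 0 (0%) in the oenots>tsc1,tsc2 libraries, with 312 higher and 180 lower at an unadjusted p under 0.05, and DESeq2 called 4 higher and 1 lower. The classes come from the same libraries, and with the library as a block edgeR called 218 genes higher (4.05%) and 161 lower (2.99%). Against class 4, edgeR called 0 of 5023 genes higher and 101 lower (2.01%), and with the library as a block 33 higher (0.657%) and 241 lower (4.8%). The 101 included 54 ribosomal protein genes and 4 mitochondrially encoded genes. *mt:CoI* had a log2 fold change of -3.27 ± 0.52 (SE, TMM scaling) with an edgeR adjusted p of 0.034, and *mt:Cyt-b* one of -3.38 with an edgeR adjusted p of 0.034. With counts of 1 left out no gene passed in either comparison.

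The 5 proposed markers were not called in the held-out genes by edgeR without the library as a block. Their values with the block are not given here. *Sod3* had 90 and 8 UMIs in class 2, against 44 and 16 in class 0, a log2 ratio of 1.11 and 1.01 with an edgeR adjusted p of 0.713 after Benjamini-Hochberg adjustment. *CG12012* had 101 and 5 UMIs in class 2, against 22 and 11 in class 0, and log2 ratios of 2.03 and 0.96. The ratios were 0.73 and 1.02 for *teq*, 0.65 and 1.97 for *SamDC* and 1.07 and 0.59 for *CG2811*. Over class 4 the ratios were 1.34 and 1.06 for *Sod3*, 0.53 and 0.59 for *CG12012*, 0.63 and 0.40 for *teq*, 1.64 and -0.33 for *CG2811* and -0.03 and 0.12 for *SamDC*. All 10 ratios over class 0 were above 0, while *CG2811* and *SamDC* stood on both sides of 0 over class 4. Replicate 2 held between 2 and 8 UMIs of each marker in class 2 of the held-out comparison, so these levels are imprecise and all 5 fell under the depth filter.

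**Figure D5:**
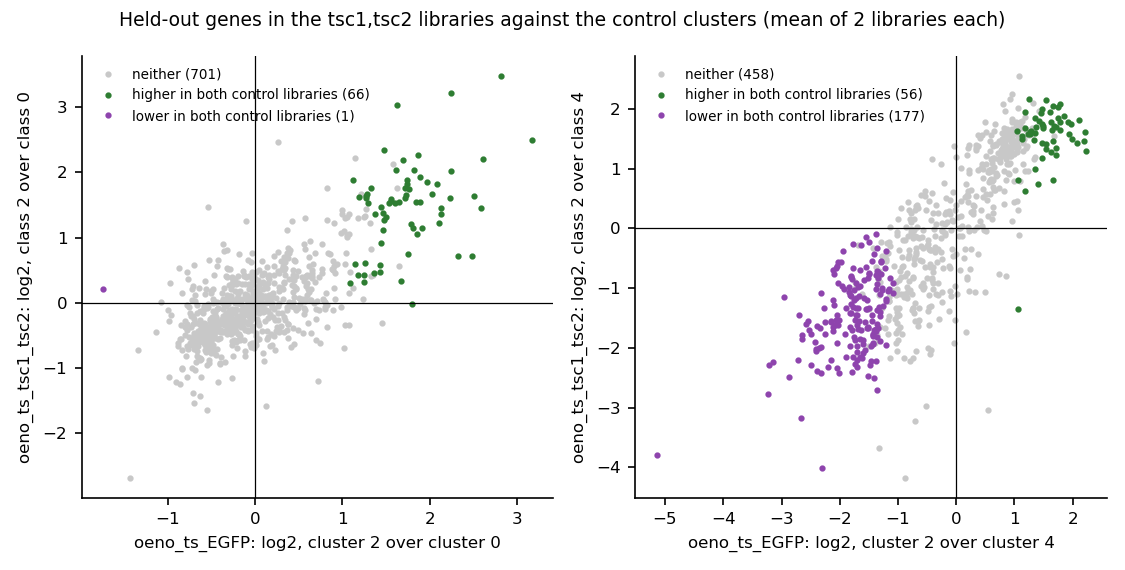
Mean log2 ratio of class 2 over class 0 (left) and over class 4 (right) in the oenots>tsc1,tsc2 libraries (vertical axis), for genes the assignment did not use, against the ratio of the clusters in oenots>EGFP (horizontal axis), with 1 point per gene coloured by its call in the controls. Of the genes higher in cluster 2 than in cluster 0, 62 of 66 were above 0 in both oenots>tsc1,tsc2 libraries, and of those lower than in cluster 4, 172 of 177 were below 0 in both. Genes of a kind move together, so these counts are not independent support.

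Class 2 took 23.8% (22.8 to 24.7) and 5.78% (4.89 to 6.82) of the nuclei in oenots>tsc1,tsc2, against 14.5% and 24.3% in oenots>EGFP, all assigned from all genes. Control nuclei were assigned with the profiles of the other control library, and oenots>tsc1,tsc2 nuclei with those of both control libraries. The assignment thus differed by genotype, and its part in the genotype comparisons was not tested. The assigned shares of the 2 control libraries stood in the opposite order to the deposited shares of cluster 2, 17.1% and 12.2%. The means were 14.8% ± 12.7 in oenots>tsc1,tsc2 and 19.4% ± 6.98 in oenots>EGFP (SD, n = 2 each), a difference of -4.64 percentage points with a p of 0.667 in a two-sided exact permutation test, where the smallest possible is 0.333. With the deposited cluster for the controls the difference was 0.109 percentage points, with an exact permutation p of 1. The libraries of 1 genotype differed by more than the genotypes did.

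Within class 2, no gene of 6113 differed between oenots>tsc1,tsc2 and oenots>EGFP in edgeR's quasi-likelihood test with Benjamini-Hochberg adjustment (0% higher, 0% lower). At an unadjusted p under 0.05, 235 were higher and 240 lower, the smallest adjusted p was 0.26, and DESeq2 called 8 higher and 4 lower. *Sod3* was at 147 and 130 CPM in oenots>tsc1,tsc2, against 157 and 50.3 CPM in oenots>EGFP, with a log2 fold change of 0.44 ± 0.59 (SE) and an edgeR adjusted p of 0.963. The other markers had log2 fold changes of 0.49 for *teq*, -0.02 for *CG12012*, -0.14 for *CG2811* and -0.40 for *SamDC*, and the adjusted p of edgeR was 0.900 for *teq* and 0.976 for *SamDC*. For *FASN3* the log2 fold change was -1.88 ± 0.63 with an edgeR adjusted p of 0.485. With 2 libraries per genotype, of which 1 held 131 nuclei of class 2, these values do not show that the genotypes are alike. The assignment to class 2 also differed by genotype, as given above.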

How the data were processed

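Nuclei of abdominal cuticles were counted in 4 libraries. Per the labels and the study's methods, the authors made the deposited counts with Cell Ranger 3.1.0 on a pre-mRNA reference of Release 6. They corrected ambient RNA with SoupX and removed nuclei of extreme totals, which they took for doublets or dead cells. Control nuclei were clustered with Seurat 3.1.2 and Harmony. No doublet caller was run here, so doublets of ordinary totals were not looked for. The deposited counts cover 13955 genes and are whole UMIs without scaling.

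UMIs were summed per library and cluster and expressed as CPM. Ratios carry a prior of 0.5 UMI. Genes with at least 50 UMIs per library over the clusters compared entered, and a call needed a 2-fold difference in the same direction in both libraries. Nuclei of oenots>tsc1,tsc2 were assigned with a multinomial model of the clusters of both control libraries. Control nuclei were assigned with a model of the other control library. Tests used edgeR 4.0.16 (quasi-likelihood, TMM factors, its default filter, threshold 0.05) in R 4.3.3, with DESeq2 1.42.0 as an alternative, and were tested on simulated data. Standard errors of edgeR values restate the test, as the fold change on the log2 scale divided by the root of F. Other steps ran in Python 3.11.15 with numpy 2.4.6, scipy 1.17.1 and pandas 2.3.3. Gene positions came from a Release 6 annotation, which placed 13294 genes by symbol, 630 by another name and left 31 unplaced. Total UMIs per library ranged between 1449112 and 3972281, which limits rare genes to a few UMIs.

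The named genes were the 5 proposed markers, the 10 genes called with the largest and up to 10 with the smallest ratio against cluster 0, 5 and 5 against cluster 4, the 5 highest against all other clusters, and up to 4 called members of each gene list. The members and the lists were chosen with earlier results of these data known. Leaving out counts of 1 was added after the data were seen.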

Additional observations from a re-analysis of the deposited data

How the results depend on the processing

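Against cluster 0, genes higher and lower numbered 257 and 70 with TMM factors, 274 and 48 with DESeq2's factors, 1212 and 64 with no filter, 656 and 12 at 20 UMIs, 782 and 89 at a fold of 1.5, 157 and 2 in nuclei of at most 400 UMIs, 172 and 1 after thinning, 377 and 5 on means of nuclei, and 193 and 15 with counts of 1 left out. Against cluster 4 the same settings gave 247 and 325, 241 and 329, 1032 and 528, 717 and 266, 812 and 356, 119 and 82, 134 and 120, 300 and 210, and 72 and 135. Against all other clusters they gave 234 and 480, 273 and 412, 899 and 486, 371 and 414, 870 and 661, 145 and 209, 240 and 241, 278 and 308, and 20 and 420. Without 1 control library, so on a single library, the counts were 782 to 834 higher and 54 to 82 lower (cluster 0), 746 to 934 and 316 to 363 (cluster 4), and 703 to 732 and 670 to 751 (all others). Stricter filters and counts of 1 left out also test fewer genes, and the causes of the other changes were not tested.

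In the held-out genes edgeR without a filter called 48 higher and 6 lower against class 0 and 16 and 231 against class 4, and DESeq2 called 4 and 1 and 1 and 163. With the replicate block, where the library pairs the classes, the counts were 218 and 161 against class 0 and 33 and 241 against class 4. With counts of 1 left out they were 0 and 0 in both comparisons, in place of the 101 lower against class 4. Without 1 library, so on a single library, the 2-fold rule gave 88 to 756 higher and 30 to 53 lower against class 0 and 209 to 962 and 232 to 394 against class 4.

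Between genotypes DESeq2 called 8 higher and 4 lower, no filter 89 and 59, and counts of 1 left out 3 and 3. Leaving out 1 library in turn gave 0 to 8 higher and 0 to 15 lower, and both highest counts came without control replicate 2. With the replicate number as a block the counts were 35 higher and 29 lower. The libraries share only a number, and the deviations of same-numbered libraries had a correlation of 0.19 over 6113 genes.

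Of 1397 ratios of named genes under an alternative, 1129 kept direction and call, 251 kept direction only and 17 turned. In nuclei of at most 400 UMIs *to* turned to 0.71 over cluster 0, and over cluster 4 *Eaat1* turned to -1.03, *Jafrac1* to 1.06, *Keap1* to -0.16, *Pepck2* to -0.15, *SamDC* to -0.30, *Zasp52* to -0.21 and *nec* to 0.83. Few nuclei of cluster 4 were that shallow, so the ratios over cluster 4 are imprecise. With counts of 1 left out *PGRP-LC* turned to -0.27 and *srp* to -0.67 over cluster 0, *Cyp4p1* to -0.030, *Eaat1* to -0.051, *EcR* to -1.96, *S6k* to -0.038 and *SamDC* to -0.49 over cluster 4, and *CG2811* to -1.25 and *CG5577* to -0.073 over all other clusters.

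Depth limits the markers. In replicate 2 of oenots>tsc1,tsc2 the class 2 of the held-out comparison held 125 nuclei (odd places) or 124 (even places), with 8 UMIs or fewer of each proposed marker.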
